A study of Homo sapiens with 4 samples.

Results

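Small RNA sequencing of HEK293T cells, a transformed cell line first grown from embryonic kidney, gave values for 7 mature miRNAs that are best known from kidney, gut and liver epithelium. They are both arms of miR-192, miR-194 and miR-204 and the 5p arm of miR-215, taken by name from a table of 2656 mature miRNAs. The cells were monoclonal lines with a landing pad, a site engineered into the genome to receive a transgene. In one group the pad carried the CAG promoter, a strong composite promoter, and in the other the PGK promoter of the phosphoglycerate kinase gene. Each group had 2 libraries, and all came from HEK293T cells on the same culture medium, with no treatment named in the labels. The series asked which miRNAs differ between these lines. The number of clones behind each group is not stated in the labels, so promoter and clone cannot be told apart, and the p-values measure only the spread between these 4 libraries.

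A mature miRNA guides the silencing complex to messenger RNAs that pair with its seed, bases 2 to 8 counted from the 5′ end. Its hairpin precursor can release a 5p and a 3p arm, one of which is usually kept at a much higher level. miR-192 and miR-194 lie together in a transcript that hepatocyte nuclear factors activate in gut and liver, and miR-215 lies with a second copy of miR-194 on another chromosome. miR-192, miR-194 and miR-215 are also known as p53-responsive. miR-204 is known from retinal pigment epithelium, kidney and other epithelia.

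The mature sequences, from RefSeq (GRCh38.p14; all 7 names matched), show which of these miRNAs can act on the same targets and which could share reads. Capitals mark the seed.
hsa-miR-192-5p: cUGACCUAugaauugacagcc
hsa-miR-215-5p: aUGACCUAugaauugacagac
hsa-miR-194-5p: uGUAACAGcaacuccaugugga
hsa-miR-192-3p: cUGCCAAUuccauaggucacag
hsa-miR-194-3p: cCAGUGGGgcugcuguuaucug
hsa-miR-204-5p: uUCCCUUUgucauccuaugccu
hsa-miR-204-3p: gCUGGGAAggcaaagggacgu
hsa-miR-211-5p: uUCCCUUUgucauccuucgccu
miR-192-5p and miR-215-5p share the seed UGACCUA although they come from different chromosomes. With positions counted from the 5′ end and the miR-192-5p base first, they differ by C1A and C20A and are identical at 19 of 21 bases. miR-211-5p, shown as the other carrier of the miR-204-5p seed, differs from miR-204-5p by A17U and U18C. How the authors assigned reads that fit both members of such a pair is not stated in the labels or files.

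The hairpins lie at 3 places. On chromosome 11, MIR192 (64891137 to 64891246) and MIR194-2 (64891355 to 64891439) lie 108 bases apart on the minus strand, and each overlaps an exon of an annotated transcript of the long non-coding gene MIR194-2HG (GENCODE 29, GRCh38). On chromosome 1, MIR215 (220117853 to 220117962) and MIR194-1 (220118157 to 220118241) lie on the minus strand, inside an intron of IARS2, the mitochondrial isoleucyl-tRNA synthetase gene, which is transcribed from the opposite strand. On chromosome 9, MIR204 (70809975 to 70810084) lies in an intron of TRPM3, a cation channel gene of the same strand. RefSeq gives miR-194-3p for MIR194-2 alone, so among the entries measured here both miR-192 arms and miR-194-3p report on chromosome 11 and miR-215-5p on chromosome 1. The 5p sequence of miR-194 is identical from both hairpins, and its counts cannot be split between the loci. The deposited tables hold no coordinates; positions were looked up by name and enter no test.

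Library totals were 13780279 and 2845945 counts in CAG replicates 1 and 2, and 7927615 and 7331437 counts in PGK replicates 1 and 2. A single read was worth 0.0777 to 0.324 CPM, the count as a part of a fixed library total after TMM scaling, the highest value being that of CAG replicate 2. The 7 miRNAs together took 0.338% and 0.342% of counts in CAG replicates 1 and 2, and 0.625% and 0.65% in PGK replicates 1 and 2. Between 87.0% and 90.3% of those reads were miR-192-5p. Among 9 markers of liver, blood, neurons, muscle and mesenchyme, the summed level was 1.62 to 2.87 CPM in CAG libraries and 4.76 to 6.41 CPM in PGK libraries, and the blood marker miR-223-3p had no read. Among them the muscle miRNA miR-133a-3p, with 4 and 0 reads in CAG and 20 and 14 reads in PGK replicates 1 and 2, was called lower (edgeR adjusted p = 0.0171). It had no adjusted p in 3 of 14 alternatives, being left untested by the filter of 10 CPM and by thinning and given none by DESeq2. In the 11 others the call was lost in 3, those without CAG replicate 1, without PGK replicate 1 and without PGK replicate 2. The 9 markers leave out other miRNAs of these tissues, looked at after the results were known. Muscle miR-1-3p averaged 5.844 log2 CPM over the 4 libraries and was called lower (log2 fold change −2.615). Mesenchymal miR-143-3p and miR-199b-5p averaged 12.0 and 64.3 CPM in CAG and 5.12 and 20.4 CPM in PGK libraries, both called higher. Neural miR-9-5p averaged 1913 CPM in CAG and 3990 CPM in PGK libraries and was called lower. The low sum holds for the 9 markers only. The part of other cells in the results below was not tested. miR-126-3p, named as the endothelial marker, stood at 1220 and 1083 CPM in CAG and 1733 and 1534 CPM in PGK replicates 1 and 2, without overlap (log2 fold change −0.5, edgeR adjusted p = 0.0793). Its other arm, miR-126-5p, singled out after its values were seen, was called lower at −0.89. Of the epithelial miR-200 family, miR-200c-3p was the highest at 54.5 to 66.2 CPM in CAG and 29.7 to 29.8 CPM in PGK libraries, and miR-141-3p had at most 1 read in a library. Apart from miR-200c-3p and miR-375-3p, each miRNA of an epithelial identity list stood below 20 CPM in every library.

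**Figure D1:**
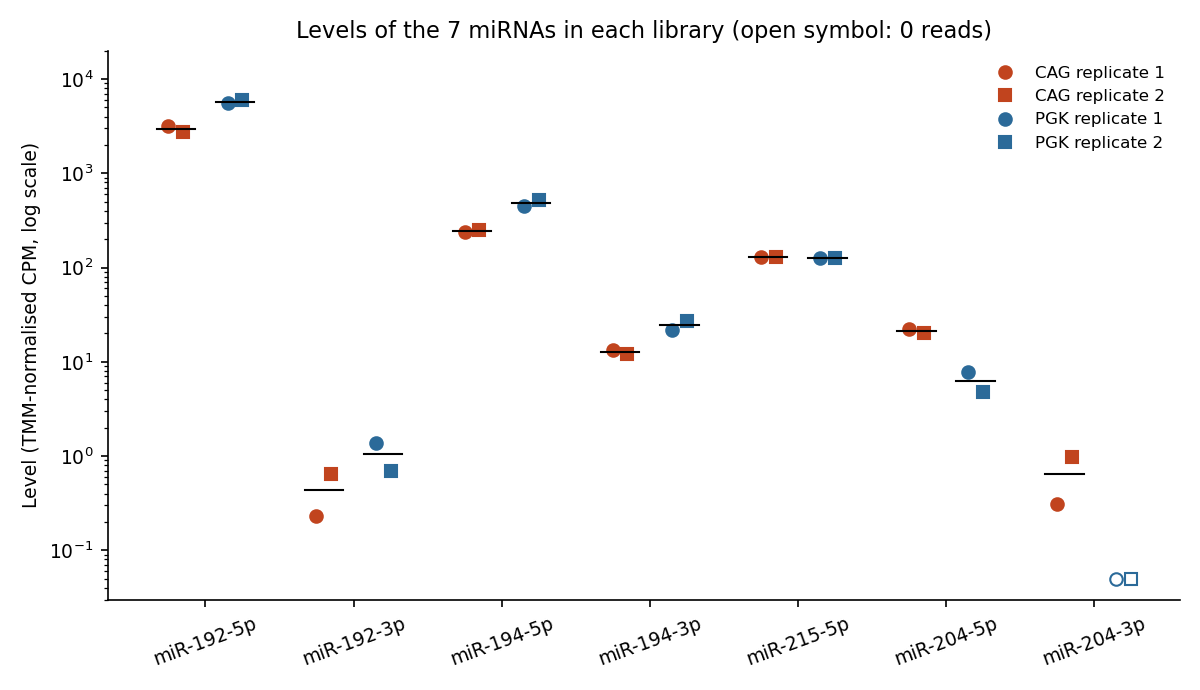
Level of each of the 7 miRNAs (TMM-normalised CPM, log axis) in every library, CAG left of PGK; horizontal lines are group means and open symbols mark libraries with 0 reads. Both arms of miR-194 and miR-192-5p lie lower in CAG libraries, miR-215-5p lies at 126 to 130 CPM throughout, and miR-204-5p lies higher in CAG libraries.

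In CAG cells the miR-194 arms and miR-192-5p were lower than in PGK cells, miR-204-5p was higher, and miR-215-5p did not pass the test. Of the 7 miRNAs, 5 passed the low-count filter; of these, 1 was called higher and 3 lower in CAG cells (edgeR quasi-likelihood test, adjusted p under 0.05 over all 773 miRNAs tested). Over all tested miRNAs 14.2% were called, 8.15% higher and 6.08% lower. The median log2 fold change of the 5 was −0.92, beside −0.0042 over all tested miRNAs. The 3 lower entries are not separate readings. miR-192-5p and miR-194-3p come from neighbouring hairpins on chromosome 11, and miR-194-5p can come from there too. The members were chosen with results of these data known, so their share of calls is given as a description. In bulk RNA, fewer cells that carry a miRNA and less of it per cell cannot be told apart.

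**Figure D2:**
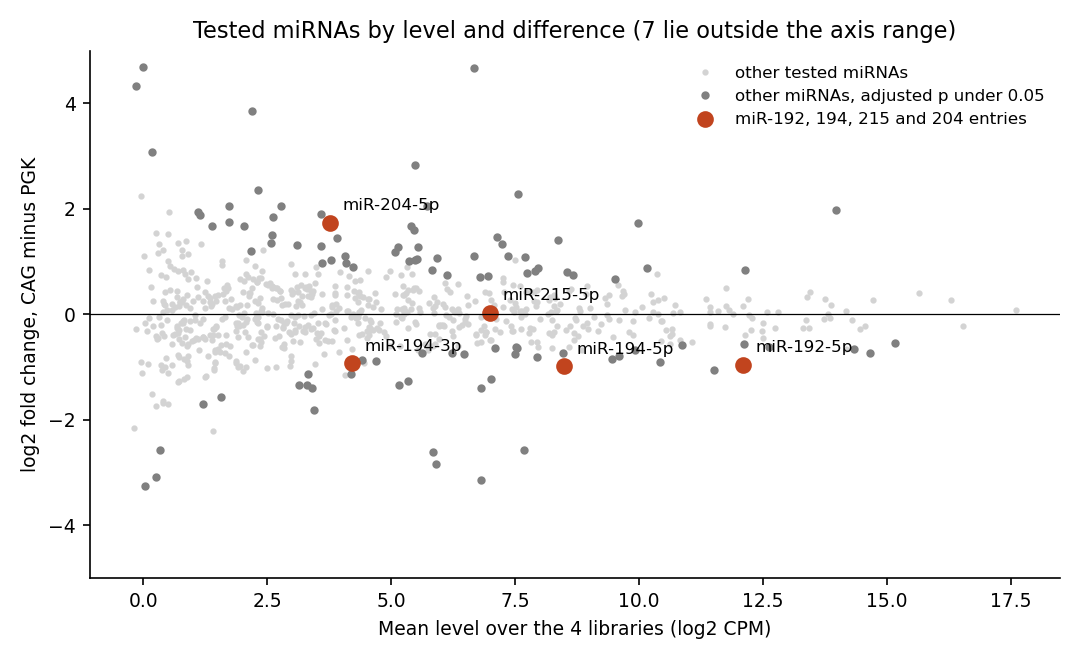
Log2 fold change (CAG minus PGK) against mean level (log2 CPM over the 4 libraries) for the 773 tested miRNAs, 7 of which lie outside the vertical range. The 3 lower entries sit close to −1 at very different levels, miR-215-5p sits at 0.03 and miR-204-5p at 1.74.

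At the chromosome 11 locus, miR-192-5p was the most abundant of the 7. It stood at 3218 and 2747 CPM in CAG replicates 1 and 2, against 5594 and 5972 CPM in PGK replicates 1 and 2. Each CAG library lay below each PGK library, as a gap in either direction did for 57.2% of all tested miRNAs. The log2 fold change was −0.96 (SE 0.16, 95% interval −1.32 to −0.59; edgeR adjusted p = 0.00303), a level in CAG cells 0.516 times that in PGK cells. The difference exceeded the spread within a group, which was 0.23 on the log2 scale between the CAG replicates and 0.09 between the PGK replicates in size. By count it ranked 43 and 49 among all miRNAs in CAG replicates 1 and 2, and 31 and 32 in PGK replicates 1 and 2.

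The other arm of the same hairpin, miR-192-3p, was close to the detection limit. It had 3 and 2 reads in CAG replicates 1 and 2, against 11 and 5 reads in PGK replicates 1 and 2, and did not pass the filter. The pooled CAG-to-PGK ratio was 0.297 (95% exact binomial interval 0.0851 to 0.848, counting error only, since PCR copies of a molecule cannot be recognised here). Without CAG replicate 1 the ratio was 0.614, and without PGK replicate 1 it was 0.449, with intervals that reach past 1. The 3p arm made up 0.01% of the reads of this hairpin in CAG cells (exact interval 0.00325% to 0.0234%) and 0.0183% in PGK cells (0.0104% to 0.0297%).

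miR-194-3p, which RefSeq ties to MIR194-2 alone, moved in the same direction as miR-192-5p. Its levels were 13.3 and 12.0 CPM in CAG replicates 1 and 2, from 171 and 37 reads, against 21.9 and 26.9 CPM in PGK replicates 1 and 2, from 175 and 193 reads. The log2 fold change was −0.92 (SE 0.26; edgeR adjusted p = 0.0368). This was the least firm of the 3 lower calls. It was lost in 6 of 14 alternatives, among them thinning of all libraries to the shallowest total (adjusted p = 0.0943) and leaving out CAG replicate 1 (adjusted p = 0.137), and its adjusted p ran from 0.0331 to 0.248 over them.

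miR-194-5p, which both loci can yield, also fell. It stood at 238 and 248 CPM in CAG replicates 1 and 2, and at 445 and 515 CPM in PGK replicates 1 and 2. The groups did not overlap. The log2 fold change was −0.98 (SE 0.18, 95% interval −1.39 to −0.58; edgeR adjusted p = 0.00513). Within each library its count was a nearly constant part of the miR-192-5p count: the log2 ratio of miR-194-5p to miR-192-5p was −3.76 and −3.47 in CAG replicates 1 and 2, and −3.65 and −3.54 in PGK replicates 1 and 2. The groups overlap in this ratio, and the mean difference of −0.02 was smaller than the replicate SDs of 0.2 in CAG and 0.08 in PGK libraries (exact two-sided permutation test, p = 1). With 2 against 2 libraries this test cannot give a p below 0.333, so it could not have shown a difference.

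The 2 arms of miR-194 kept close to one ratio. The 5p arm had 17.9 and 20.6 reads per 3p read in CAG replicates 1 and 2, and 20.3 and 19.1 in PGK replicates 1 and 2. The mean log2 difference was −0.04, within the replicate spread (exact permutation p = 1, where 0.333 is again the smallest possible). For miR-192 the log2 ratio of the arms, which rests on the few 3p reads above, was 13.75 and 12.05 in CAG replicates and 11.99 and 13.06 in PGK replicates (exact permutation p = 0.667). These values overlap and differ between replicates by more than between groups.

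At the chromosome 1 locus, miR-215-5p had nearly the same level in every library. It stood at 130 and 128 CPM in CAG replicates 1 and 2, against 126 and 127 CPM in PGK replicates 1 and 2. These groups did not overlap either, so lack of overlap does not set the called members apart. The log2 fold change was 0.03 (SE 0.18; edgeR adjusted p = 0.923). The 95% interval of −0.37 to 0.43 corresponds to a CAG level 0.773 to 1.34 times the PGK level, so a halving of the size seen for miR-192-5p lies outside it. A difference that lies inside this interval could not be told from none with these libraries.

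The other arm, miR-215-3p, gave 21 and 1 reads in CAG replicates 1 and 2, and 1 and 4 reads in PGK replicates 1 and 2. It was not tested by the fit. The pooled ratio of 4.18 (exact interval 1.54 to 14.1) rests on single libraries. It was 0.983 without CAG replicate 1 (0.0208 to 8.78) and 2.47 without PGK replicate 1 (0.839 to 9.86), both with intervals that include 1, and 11.01 without PGK replicate 2.

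Within a library, the shares of miR-192-5p and miR-215-5p differed between the groups. There were 24.7 and 21.5 reads of miR-192-5p per read of miR-215-5p in CAG replicates 1 and 2, and 44.4 and 47.0 in PGK replicates 1 and 2. The log2 ratio averaged 4.53 ± 0.14 in CAG and 5.51 ± 0.06 in PGK libraries (SD, n = 2 each), a difference of −0.99 with no overlap. An exact two-sided permutation test gave p = 0.333, the smallest that 2 against 2 libraries allow, and 0.833 after Benjamini-Hochberg adjustment over the 5 ratios tested. This permutation test takes that value for any 2 against 2 libraries that do not overlap, so it says nothing beyond the lack of overlap, and no other test was run on the ratios. The difference was larger than the replicate spread.

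Seed family counts do not depend on how reads were divided between this pair. As miR-192-5p made up 95.6% to 97.9% of the family in each library, they largely repeat its result. They add no reading on miR-215-5p or on the division of reads. The counts of family UGACCUA equalled the sum of miR-192-5p and miR-215-5p within 1 read in every library. The family stood at 3341 and 2809 CPM in CAG replicates 1 and 2, and at 5786 and 6181 CPM in PGK replicates 1 and 2. Its log2 fold change was −0.96 (SE 0.16; edgeR adjusted p = 0.00728 over 642 families, of which 10.4% were called, 5.76% higher and 4.67% lower). miR-215-5p supplied 3.89% and 4.44% of the family in CAG replicates 1 and 2 (Wilson intervals 3.71% to 4.07% and 4.03% to 4.89%). It supplied 2.2% and 2.08% in PGK replicates 1 and 2 (2.07% to 2.34% and 1.96% to 2.22%). The call of the family was lost in 3 of 14 alternatives, among them those without PGK replicate 1 and without PGK replicate 2.

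The family of miR-194-5p, GUAACAG, had the same counts as the miRNA and a log2 fold change of −1.02, and the family of miR-194-3p, CAGUGGG, one of −0.96. Both were called lower (edgeR adjusted p = 0.00781 and 0.043), but the counts are those of the single miRNAs and add no independent reading. The call of GUAACAG was lost in 4 of 14 alternatives and that of CAGUGGG in 7, among them each fit that left out 1 library (adjusted p = 0.11 to 0.273 in those).

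**Figure D3:**
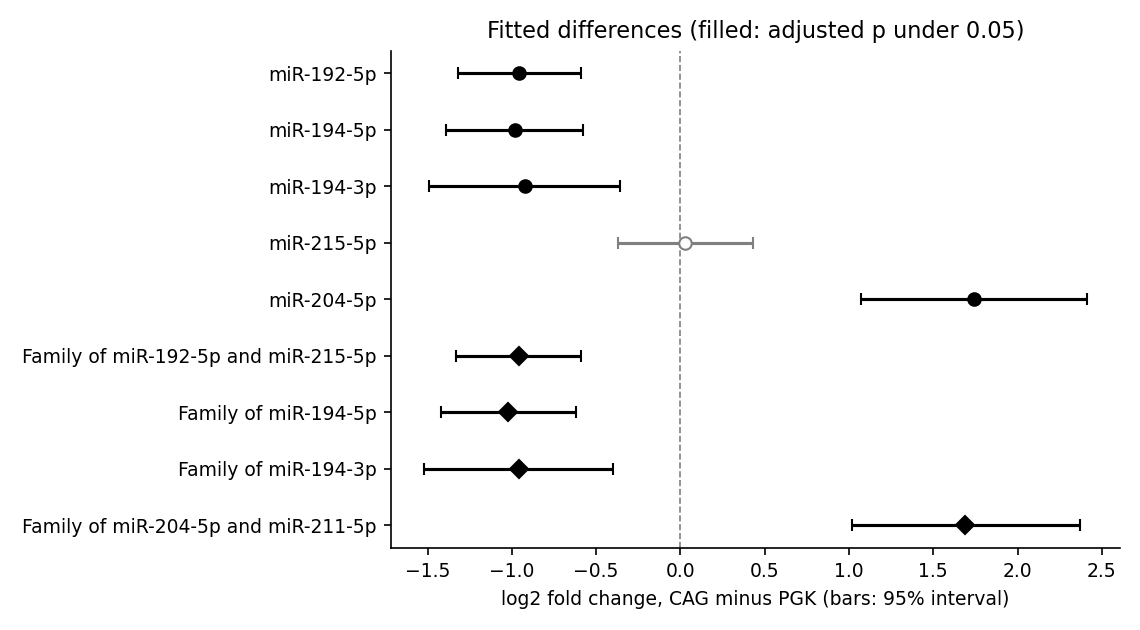
Fitted log2 fold changes (CAG minus PGK) with 95% intervals for the 5 tested miRNAs (circles) and the 4 tested seed families that hold them (diamonds); filled symbols passed the test. The intervals of miR-192-5p and miR-215-5p do not meet, and the family of both lies at −0.96.

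**Figure D4:**
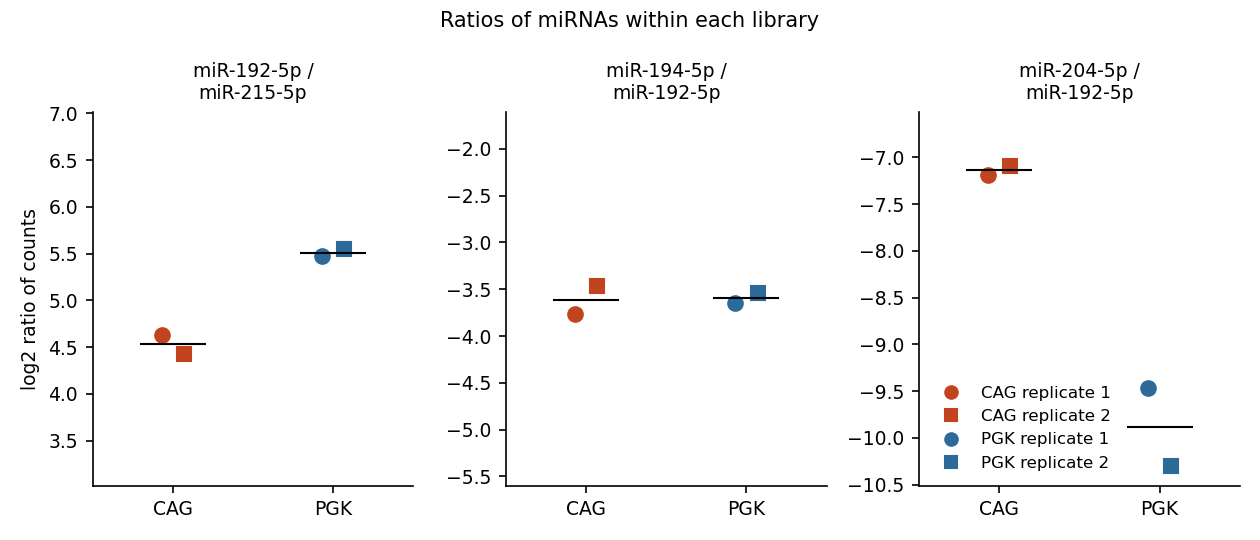
Log2 ratios of counts within each library for 3 pairs, CAG left of PGK, with group means as lines; every panel spans the same log2 range. miR-192-5p over miR-215-5p is lower in both CAG libraries (4.63 and 4.43), miR-194-5p over miR-192-5p overlaps between the groups, and miR-204-5p over miR-192-5p is higher in both CAG libraries (−7.19 and −7.09).

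miR-204-5p, from the TRPM3 intron on chromosome 9, went the other way. It had 284 and 62 reads in CAG replicates 1 and 2, or 22.1 and 20.1 CPM, against 63 and 34 reads in PGK replicates 1 and 2, or 7.88 and 4.74 CPM. Each CAG library lay above each PGK library, and the PGK replicates differed more (0.73 on the log2 scale) than the CAG replicates (0.13). It rose 3.34-fold, a log2 fold change of 1.74 (SE 0.3, 95% interval 1.07 to 2.41; edgeR adjusted p = 0.0033). Leaving out PGK replicate 2, the library with the lowest level, gave a log2 fold change of 1.42 and ended the call (adjusted p = 0.143; 1.86e-05 to 0.143 over the 14 alternatives).

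The 3p arm of miR-204 had 4 and 3 reads in CAG replicates 1 and 2 and none in either PGK library. Taking 3 reads over the PGK group as the limit of a count of 0, it was at least 2.22-fold higher in CAG cells with the CAG reads taken as counted, or 1.57-fold without CAG replicate 2, 1.05-fold without PGK replicate 1 and 1.17-fold without PGK replicate 2. With counting error in both groups, the exact 95% lower limit of the ratio was 1.37. It lay below 1 without CAG replicate 2 (0.777), without PGK replicate 1 (0.648) and without PGK replicate 2 (0.722). The 3p arm was 1.98% of miR-204 reads in CAG cells (exact interval 0.801% to 4.04%). In PGK cells it was 0 of 97 reads, which allows a share of up to 3.09% by the limit of 3 reads and up to 3.73% by the exact interval, so no difference in arm use was detectable at this depth.

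miR-211-5p, which shares the seed of miR-204-5p and lies in an intron of the related gene TRPM1 on chromosome 15, had 2 and 1 reads in CAG replicates 1 and 2, and 1 read in each PGK library. miR-211-3p had none. The family UCCCUUU therefore held almost only miR-204-5p, and its log2 fold change was 1.69 (SE 0.29; edgeR adjusted p = 0.00836). This call was lost in 4 of 14 alternatives, among them 3 of the 4 fits that left out 1 library.

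The opposite directions of miR-204-5p and miR-192-5p changed their ratio within the libraries. There were 146 and 137 reads of miR-192-5p for each read of miR-204-5p in CAG replicates 1 and 2, and 710 and 1260 in PGK replicates 1 and 2. The log2 ratio of miR-204-5p to miR-192-5p was −7.14 ± 0.07 in CAG and −9.88 ± 0.59 in PGK libraries (SD, n = 2 each), a difference of 2.74 with no overlap. The exact permutation p was again the smallest possible, 0.333 (0.833 adjusted), which carries no more than that lack of overlap. In both groups the order of levels began with miR-192-5p, went on with miR-194-5p and then miR-215-5p, and ended with the rare 3p arms of miR-192 and miR-204. In CAG cells miR-204-5p, at a mean of 21.1 ± 1.39 CPM, stood above miR-194-3p at 12.6 ± 0.91 CPM (SD, n = 2 each). In PGK cells miR-204-5p, at 6.31 ± 2.22 CPM, stood below miR-194-3p at 24.4 ± 3.54 CPM. The other neighbours in the order, apart from the 3p arms with few reads, were further apart than their SDs. Adapter ligation favours some miRNAs over others, so a comparison between miRNAs is looser than a comparison of 1 miRNA across libraries.

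Neighbouring hairpins on the same chromosomes did not pass the test: of 2 tested entries 0 were called by edgeR, DESeq2 or limma-voom, and 0 had an unadjusted p under 0.05. With 14.2% of all tested miRNAs called by edgeR, a lack of calls among 2 entries carries little. miR-664a comes from a hairpin 82296 bases from MIR194-1, in RAB3GAP2, that overlaps the small nucleolar RNA gene SNORA36B, so its reads may include fragments of that RNA. Its 3p arm stood at 24.8 and 18.2 CPM in CAG and 37.4 and 15.8 CPM in PGK replicates 1 and 2, with a log2 fold change of −0.27 (SE 0.37). The 5p arm had one of −0.22 (SE 0.3). MIR6750 and MIR6749, the next hairpins beyond MIR194-2 on chromosome 11, lie in introns of ATG2A. Each of their arms had at most 4 reads in any library, too few to test.

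The other miRNAs listed here for liver, gut and kidney did not pass the test in either direction. The deposited counts cover 10 such entries, of which 7 were tested, with a median log2 fold change of −0.28. With all 4 libraries 0 were called by edgeR, by DESeq2 or by limma-voom (0 at an unadjusted p under 0.05 by edgeR). As edgeR called 14.2% of all tested miRNAs, a lack of calls among 7 entries carries little. The podocyte and tubule miRNA miR-30a-5p stood at 4632 and 3220 CPM in CAG and 5242 and 5088 CPM in PGK replicates 1 and 2 (log2 fold change −0.4, SE 0.19, adjusted p = 0.209). The log2 fold change was −0.28 for miR-30a-3p, 0.06 for miR-31-5p and 0.28 for miR-10a-5p. The list leaves out other 5p arms of the miR-30 family, looked at after the results were known. Of these, miR-30b-5p (log2 fold change −0.797) and miR-30d-5p (−0.662) were called lower, and miR-30c-5p (−0.307) and miR-30e-5p (0.029) were not called. miR-122-5p, which defines hepatocytes, had 20 and 0 reads in CAG and 6 and 19 reads in PGK replicates 1 and 2. miR-802, a miRNA of liver and kidney, had no read.

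Epithelial identity miRNAs moved both ways. The counts cover 12 such entries, from a list chosen with earlier results known. Of these, 5 were tested, with a median log2 fold change of −1.34. Among the 5, 1 was called higher and 2 lower, against 8.15% and 6.08% of all tested miRNAs. miR-200b-3p, which represses the mesenchymal factors ZEB1 and ZEB2, fell to 5.13 and 4.21 CPM in CAG replicates 1 and 2, against 19.3 and 15.1 CPM in PGK replicates 1 and 2 (log2 fold change −1.82, edgeR adjusted p = 0.00257). miR-203a-3p, a keratinocyte miRNA, fell to 6.45 and 2.27 CPM in CAG replicates 1 and 2, against 13.6 and 13.0 CPM in PGK replicates 1 and 2 (adjusted p = 0.03). miR-200c-3p rose by 1.03 on the log2 scale (adjusted p = 0.00887). miR-375-3p, at −0.53, and miR-200a-3p, at −1.74, were not called. miR-205-5p, of stratified epithelia, had 8 and 3 reads in CAG replicates 1 and 2 and none in PGK libraries. All 3 calls were lost without PGK replicate 1 and without PGK replicate 2.

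In a list of p53-responsive miRNAs, 2 of 8 tested were called higher and 1 lower, against 8.15% and 6.08% of all tested miRNAs. The list was chosen with earlier results known, and its tested miRNAs had a median log2 fold change of −0.53. miR-34a-5p, the best known of them, stood at 64.1 and 52.5 CPM in CAG and 353 and 349 CPM in PGK replicates 1 and 2 (log2 fold change −2.57, edgeR adjusted p = 6.55e-06) and was called in all 14 alternatives. miR-143-3p and miR-16-1-3p rose by 1.32 and 0.97, each from few reads, and lost the call in 5 and 6 of 14 alternatives. Neither miR-107, the most abundant of the list, at −0.18, nor miR-34c-5p, at −0.52, passed the test. miR-34a-3p, the other arm of the miR-34a hairpin, was not called (log2 fold change −0.97, edgeR adjusted p = 0.273). It had 17 and 1 reads in CAG and 17 and 16 reads in PGK replicates 1 and 2. The activity of p53 was not tested.

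**Figure D5:**
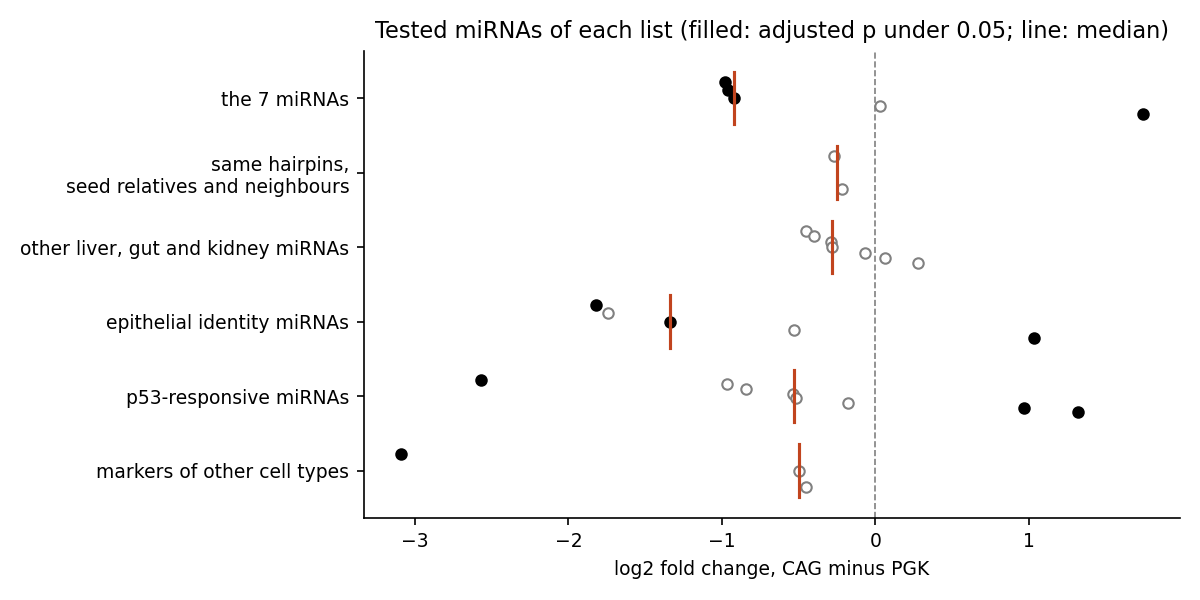
Log2 fold changes (CAG minus PGK) of the tested miRNAs in each list, with filled points past adjusted p 0.05 and red lines at the list medians. The 7 entries for other liver, gut and kidney miRNAs hold no filled point, while epithelial identity and p53-responsive miRNAs have filled points on both sides of 0. Of all tested miRNAs 14.2% were called.

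The miRNAs with the most similar patterns over the 4 libraries were found by the Euclidean distance between centred log2 CPM profiles, limited to miRNAs averaging 20 CPM or more. For miR-192-5p the nearest were miR-9-5p (distance 0.16), miR-708-5p (0.22) and miR-194-5p (0.22), of 362 compared, and miR-215-5p ranked 162 at a distance of 1.0. miR-9-5p, a miRNA of neural precursors, stood at 2060 and 1767 CPM in CAG and 4088 and 3891 CPM in PGK replicates 1 and 2. The nearest to miR-204-5p were miR-199b-5p (0.23), miR-4421 (0.47) and miR-1269b (0.48), of 363. The nearest to miR-215-5p were miR-26a-5p, miR-556-5p and miR-769-5p, at 0.05 to 0.06. Over 4 libraries in 2 groups, a small distance requires a similar fold change.

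Leaving out single libraries did not turn the direction of any called member. Without PGK replicate 1 the log2 fold changes were −1.1 for miR-194-5p, −1.02 for miR-192-5p and −1.09 for miR-194-3p, and none of the 3 remained called (edgeR adjusted p = 0.0739, 0.103 and 0.133). Without PGK replicate 2 they were −0.88, −0.92 and −0.79 in the same order (adjusted p = 0.162, 0.143 and 0.248). Without CAG replicate 1 or CAG replicate 2 miR-204-5p, miR-194-5p and miR-192-5p kept their calls. In these fits a group has a single library, which is assumed to vary like the pair in the other group.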

How the data were processed

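The authors deposited whole-number counts for 2656 mature miRNAs and for seed families, 1 column per library; how reads were trimmed, aligned and counted, and on which build, is not stated in the labels or files. Per the labels' protocols, Trizol total RNA from scraped HEK293T cells went into NEBNext Small RNA libraries, with no molecular identifiers described, so ligation and PCR preferences enter the counts. Groups came from sample titles. Every column belonged to a labelled library.

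Tests used edgeR 4.0.16 in R 4.3.3 (quasi-likelihood, newer method, robust; TMM; minimum count 10, minimum total 15), which kept 773 miRNAs and 642 families, with group as the only term. Log2 fold changes are CAG minus PGK, and p-values were adjusted by Benjamini-Hochberg over each table. The procedure was tested on simulated data. Within-library ratios were compared by exact permutation (scipy 1.17.1); limma 3.58.1, DESeq2 1.42.0 and other scalings, filters and sample sets served as alternatives. The text names the 7 members, relatives and neighbours with reads, the most abundant and the called members of each list, and the 3 nearest profiles. Some other arms and family members of these, and other tissue miRNAs, were added after the results were known. Members and lists were chosen with earlier results of these data known.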

Additional observations from a re-analysis of the deposited data

How the results depend on the processing

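Alternatives of scaling, filter, test and depth kept the direction of every called member. miR-192-5p and miR-194-5p were called in 12 of 14 alternatives, miR-204-5p in 13 and miR-194-3p in 8; miR-215-5p was called in none, at 0.0 to 0.1. Adjusted p ran from 9.68e-08 to 0.143 for miR-192-5p and from 0.000124 to 0.162 for miR-194-5p. Leaving out 1 library gave log2 fold changes of −1.07 to −0.84 for miR-192-5p, −1.1 to −0.88 for miR-194-5p, −1.09 to −0.79 for miR-194-3p and 1.42 to 2.14 for miR-204-5p. For the families it gave −1.1 to −0.85 (UGACCUA), −1.16 to −0.94 (GUAACAG), −1.14 to −0.84 (CAGUGGG) and 1.36 to 2.06 (UCCCUUU), and ended the call in 2 of 4 fits for UGACCUA, in 3 each for GUAACAG and UCCCUUU and in all 4 for CAGUGGG. miR-194-3p also lost its call with no low-count filter (−0.91) and with thinning to the shallowest library (−0.88), and CAGUGGG with the same settings (−0.96 and −0.88). Calls over all miRNAs numbered 110, with 65 after thinning and 16 to 162 without 1 library; over families they numbered 67, with 14 to 60. With a filter of 10 CPM the miRNA calls were 39 higher and 39 lower. The cause of these losses was not tested.

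Whether same-numbered libraries belong together is not stated in the labels. Deviations of same-numbered libraries had a correlation across miRNAs of 0.0403, which gives no sign of a pairing but cannot exclude one. With the replicate block 63 miRNAs and 21 families were called, miR-194-3p stood at −0.9, UGACCUA at −0.96, GUAACAG at −1.01, CAGUGGG at −0.94 and UCCCUUU at 1.68, all without a call.

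Leaving out 1 library moved the log2 ratio difference between −1.09 and −0.89 for miR-192-5p over miR-215-5p and between 2.33 and 3.16 for miR-204-5p over miR-192-5p. Differences near 0 changed sign: −0.16 to 0.12 for miR-194-5p over miR-192-5p, −0.48 to 1.23 for the miR-192 arms and −0.14 to 0.07 for the miR-194 arms. A prior count of 0.5 kept all 5 directions. The miR-204 arm ratio has no value in PGK libraries because the 3p arm had 0 reads, so its alternatives were not run. CAG replicate 2, the shallowest library, limits what can be seen of the 3p arms: a count of 0 there allows up to 0.972 CPM.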
